A study of Mus musculus with 15 samples.

Results

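The Il1a and Il1b locus was taken as every DNase I hotspot overlapping the 150 kb window chr2:129090000-129240000 of the mouse build mm9, with Il1a placed at about 129.125 to 129.136 Mb and Il1b at about 129.19 to 129.197 Mb. A hotspot is a stretch that DNase I cut more readily than its surroundings, and the authors deposited one list of hotspots per library. Elements were formed by joining hotspots of any of the 15 lists that overlapped by 1 bp or more, which gave 23 elements in the window out of 324185 in the genome. The cells were macrophages grown from bone marrow, on the C57BL/6J background, of the genotypes Ikzf KO, littermate control and wild type (WT), after 0, 3 or 8 h with 10 ng/ml LPS (lipopolysaccharide, the bacterial outer membrane component sensed through Toll-like receptor 4). Each time had 2 KO, 1 littermate and 2 WT libraries, and the littermate and WT libraries together are called controls. The titles give 80 U of DNase for every library except WT replicate 2, which had 100 U at each time. The labels name no Ikzf allele, no age and no sex, and do not say whether replicates came from different animals, so the p-values reflect only how far these libraries spread, which may be technical.

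Il1a and Il1b encode interleukin-1 alpha and interleukin-1 beta, a pair of inflammatory cytokines that signal through the same receptor. Macrophages hold little of either transcript at rest and make much of both after LPS. Interleukin-1 beta is made as an inactive precursor that caspase-1 cleaves, whereas the interleukin-1 alpha precursor is itself active. The human IL1B gene has an LPS-responsive enhancer a few kilobases upstream of its start in addition to its promoter, and the myeloid factor PU.1 occupies the gene in monocytes. Ikaros, named in the series title, is a zinc finger protein that binds sites with a GGGAA core.

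Both genes lie on the minus strand in the RefSeq table, so positions above a gene's start are upstream of it. Elements are named here by the distance of their midpoint from the nearer gene start, which the window's definition gives to the nearest kb. In the RefSeq order of build GRCm38.p6, Ckap2l and the long non-coding RNA Gm14023 precede Il1a, the small nuclear RNA gene Gm25703 and the pseudogene Gm18333 lie between Il1a and Il1b, and the long non-coding RNA Il1bos and the pseudogene Spcs2-ps follow Il1b. Those genes were not placed on mm9, so no element is assigned to them.

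The 250 bases before each RefSeq start are shown because the elements over both starts appeared or ranked higher after LPS (build GRCm38.p6, minus strand, chr2:129309973-129310222 for Il1a and chr2:129371140-129371389 for Il1b). Capitals mark matches to the motifs named below.
Il1a: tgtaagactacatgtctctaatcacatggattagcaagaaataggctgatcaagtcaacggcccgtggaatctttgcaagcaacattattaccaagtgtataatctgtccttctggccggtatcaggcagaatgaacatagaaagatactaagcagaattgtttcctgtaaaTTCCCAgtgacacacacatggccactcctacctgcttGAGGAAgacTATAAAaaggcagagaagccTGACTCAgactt
Il1b: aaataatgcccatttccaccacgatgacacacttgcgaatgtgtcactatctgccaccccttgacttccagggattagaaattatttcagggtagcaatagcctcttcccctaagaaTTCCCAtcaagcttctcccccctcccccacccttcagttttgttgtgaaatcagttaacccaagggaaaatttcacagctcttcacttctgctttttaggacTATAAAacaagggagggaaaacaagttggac
Each promoter held a TATA box match (TATAAA), beginning 32 bases before the Il1a start and 31 before the Il1b start, and 12.4% of the 32851 RefSeq promoters of the same length held one. Each also held one match to the Ikaros letters TGGGAA, on the opposite strand, beginning 78 bases before the Il1a start and 133 before the Il1b start, and 21.6% of promoters held that motif. The shorter GGGAA core was not searched. It also occurs outside this match in the Il1b sequence, on both strands, and not in that of Il1a. The Il1a promoter alone held PU.1 letters (GAGGAA, 23.3% of promoters) and AP-1 letters (TGANTCA, 6.75% of promoters). Neither held NF-kB letters in these 250 bases, whether in the strict form (GGG, 2 free bases and TTTCC; 1.41% of promoters) or in the loose form that contains it (GGG, 5 free bases and CC; 45.8%). Neither held C/EBP letters (TTGCNNAA; 9.56%), IRF letters (GAAA, 2 free bases and GAAA; 2.98%) or CRE letters (TGACGTCA; 1.55%). The search covered both strands, and a match or its lack says only whether the letters are there.

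The lists differ in ways that bear on every value below. They held 111553 to 132279 hotspots in KO, 52400 to 114427 in the littermate libraries and 15659 to 51834 in WT, and stopped at Z-scores of 3.40 to 3.66 in KO, 3.65 to 4.54 in the littermate libraries and 7.98 to 10.6 in WT. The Z-score, the authors' score of a hotspot within its library, was 25.1 to 40.0 in KO at rank 15659, 25.8 to 27.3 in controls at 8 h and 8.48 to 11.4 in controls at 0 and 3 h. Depth is unknown. If the step between highest tag densities marks 1 tag after scaling to a common total, which no source states, every KO library (relative depth 0.741 to 1) was deeper than every littermate library (0.525 to 0.712). On that reading the WT libraries, at 0.596 to 0.947, overlapped both. Strength and cutoff cannot be told apart from genotype here, nor from time in controls. Depth, on that reading, cannot be told apart from genotype between KO and littermate. Elements were therefore compared by rank from the strongest hotspot, in lists shortened to the length of the shortest in each comparison. The cell type and the KO were not checked against marker genes or Ikzf1, since no mm9 gene positions were used.

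**Figure D1:**
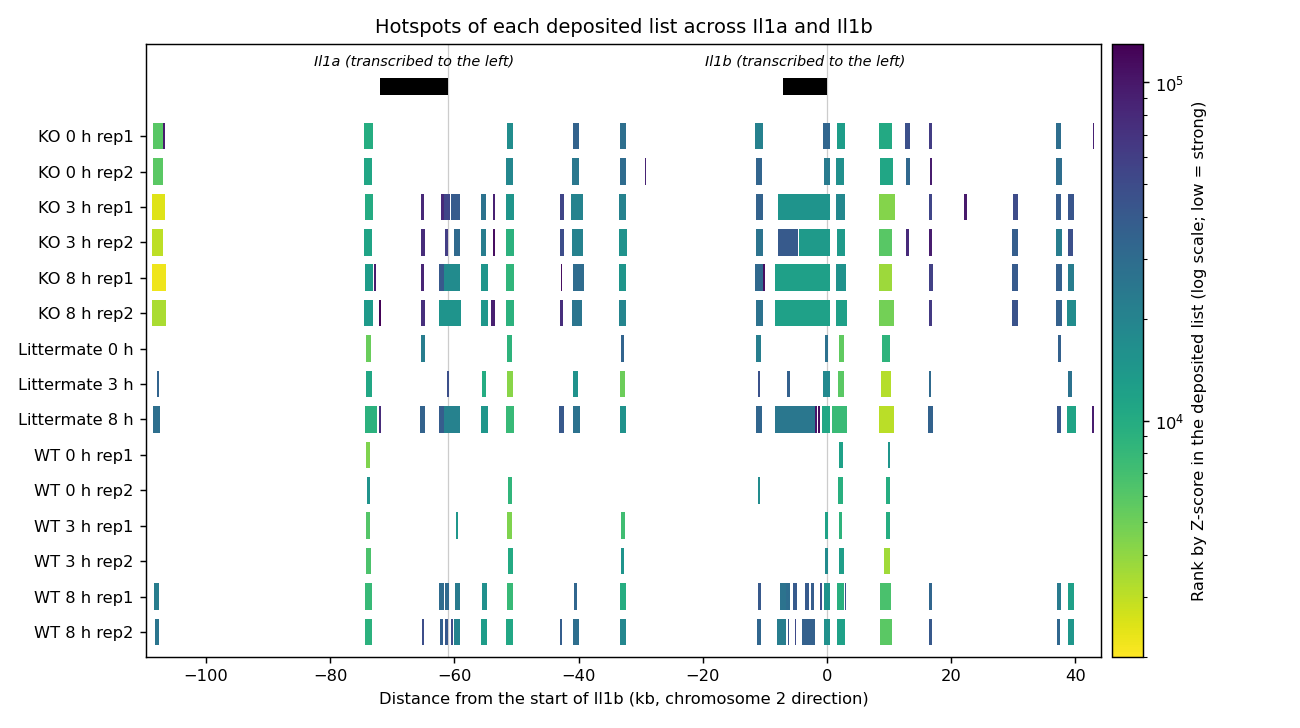
Hotspots of each deposited list across Il1a and Il1b, by distance from the Il1b start in kb, with 1 row per library and colour for the rank by Z-score within the list (log scale, yellow for strong). Elements around both genes are sparse in the 0 h rows and dense in the 8 h rows, and in the KO 3 h and 8 h rows hotspots span the whole of Il1b.

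The deposited lists held more hotspots in the window after LPS in every genotype, although the lists themselves differ in length. Hotspot counts also depend on how a list splits an element. At 8 h the element over the Il1b start held 7 and 5 hotspots in WT, 4 in the littermate and 1 in each KO list. The window held 14 and 13 hotspots in KO at 0 h, 21 and 21 after 3 h and 20 and 19 after 8 h. It held 9, 13 and 21 in the littermate libraries at 0, 3 and 8 h. In WT it held 3 and 5 at 0 h, 7 and 6 after 3 h and 22 and 22 after 8 h. At equal length, among the strongest 15659 of each list, the differences were smaller. The window then held 4 and 3 hotspots in KO at 0 h, 5 and 7 after 3 h and 8 and 8 after 8 h. The littermate libraries held 4, 6 and 7 of these at 0, 3 and 8 h. WT held 3 and 4 at 0 h, 7 and 5 after 3 h and 7 and 6 after 8 h. Each of the 5 series thus had more at 8 h than at 0 h. Of the 23 elements, 15 were in at least 1 list at 0 h and 20 in at least 1 list at 8 h, counts with no genome share taken. All 5 deposited 8 h lists held 14 elements (60.9%), against 11.6% of elements across the genome, and all 5 deposited 0 h lists held 3 (13.0%, against 4.19%). The 14 include the element 46.5 kb downstream of the Il1a start, whose control hotspots lie outside the window. Elements here were also longer than elsewhere, with a median of 1174 bp against 420 bp over the genome, and merged length grows with the number of lists. Every element was in at least 1 KO list, where 17.9% of elements across the genome were in none.

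The 3 elements in all 15 lists (13.0%, against 3.22% over the genome) were the one 12.5 kb downstream of the Il1a start, the one 2.0 kb upstream of Il1b and the one 9.6 kb upstream of Il1b. The Il1b 9.6 kb element (chr2:129205332-129207923) had the best median rank of the locus over all 15 lists, 5908, with an absent element ranked below every listed one. In the 6 KO lists the element 46.5 kb downstream of Il1a, described below, ranked above it. It ranked 10392 and 11060 in KO at 0 h, 4356 and 5908 after 3 h and 3708 and 4836 after 8 h. In the littermate libraries it ranked 8690 at 0 h, 3202 at 3 h and 3069 at 8 h. In WT it ranked 14748 and 9775 at 0 h, 9826 and 3609 after 3 h and 6615 and 5822 after 8 h. Within each genotype every 8 h list ranked it above every 0 h list. Z-scores were 78.3 and 77.8 at 8 h, against 34.8 and 32.8 at 0 h, in KO. They were 68.9 at 8 h against 13.4 at 0 h in the littermate, and 54.2 and 49.8 at 8 h against 9.18 and 15.4 at 0 h in WT.

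The question of the first comparison was how 8 h of LPS changed the locus relative to 0 h in all genotypes. With 17237 hotspots per list, 10 of the 23 elements entered a list, and 3 of these ranked higher at 8 h in KO, littermate and WT each, with no overlap between times. Across the genome 7.47% of elements did so. None ranked lower in all genotypes, against 5.13% over the genome, and 1 of 10 did without WT replicate 2, against 8.09%. The 3 were the Il1b 9.6 kb element, the element over the Il1b start and the element 5.8 kb upstream of Il1a. The rank gain, the mean log2 rank at 0 h less that at 8 h, is positive where an element was stronger at 8 h, since a low rank is a strong one. It was 1.22 at the Il1b 9.6 kb element, with 1.34 in KO, 1.502 in the littermate and 0.95 in WT. For each of the 3, the exact permutation test (two-sided, times permuted within genotype) gave p = 0.0278, the lowest value possible with 72 arrangements, and an adjusted p of 0.221 over 28379 elements, which did not pass 0.05. The median gain was 0.26 over the 10 elements and -0.01 over all elements. The count was 7 of 22 in the lists as deposited, against 3.49% over the genome, and 5 of 11 without WT replicate 1, against 11.0%. It was 6 of 13 when hotspots were ranked by highest tag density, against 6.53%. With lists shortened to 15659 it was 1 of 10, against 7.30%, and with 0.5 times the length 1 of 5, against 5.58%. The Il1b 9.6 kb element kept its call in all 14 settings run.

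The element over the Il1b start (chr2:129188574-129197572) ran through the gene. It ranked 33155 and 23230 in KO at 0 h, 14900 and 13685 after 3 h and 12334 and 12137 after 8 h. The littermate libraries ranked it 27878, 18256 and 10816 at 0, 3 and 8 h. In WT it was in neither 0 h list, at ranks 11730 and 17703 after 3 h and at 15277 and 15971 after 8 h. The rank climbed from 0 to 8 h in KO and littermate, while the WT lists at 3 and 8 h overlapped. Its mean gain at 8 h over 0 h was 0.39 in the shortened lists, where no 0 h list held it, so the gain is measured against the end of the list. The call was lost with lists of 15659 hotspots. It also depends on how the element was merged: with at least 50% of the element covered, and with elements merged from WT lists only, the gain was 0.20 (exact permutation p = 0.333).

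In the deposited lists, whose lengths differ, more of Il1b lay inside hotspots at 8 h than at 0 h in every genotype. Hotspots covered 8.70% and 7.30% of the Il1b interval in KO at 0 h, 100.0% and 98.7% after 3 h and 100.0% and 100.0% after 8 h. They covered 4.54%, 14.5% and 91.0% in the littermate libraries at 0, 3 and 8 h. In WT they covered 0% in both 0 h lists, 5.18% and 4.14% after 3 h and 54.2% and 49.9% after 8 h. In these lists both KO libraries lay above all 3 controls at 3 h and at 8 h, with the littermate library nearest to them at 8 h. The longest hotspot over the gene spanned 8504 and 5141 bp in KO at 3 h, and 8962 and 8914 bp in KO at 8 h. Only 0.0357% and 0.213% of the hotspots in the KO 3 h lists, and 0.0200% and 0.0234% in the KO 8 h lists, were as long or longer. In the littermate 8 h list it spanned 6395 bp, a length that 0.0743% of hotspots reached. In WT at 8 h the longest was 1014 and 2034 bp, and 25.7% and 3.91% of hotspots were as long. Hotspots were longer in KO in general, with medians of 1650 to 1823 bp over the strongest 15659, against 622 to 889 bp in controls at 0 and 3 h and 1162 to 1571 bp in controls at 8 h, and the part of that and of the list cutoff in the coverage of Il1b was not tested. At equal length, among the strongest 15659, no hotspot covered any of Il1b in any library at 0 h. At 3 h these covered 7001 and 4577 bp in KO, against 0 bp in the littermate and 363 and 0 bp in WT. At 8 h they covered 7001 and 7001 bp in KO, against 835 bp in the littermate and 530 and 0 bp in WT. The near-complete coverage in the littermate 8 h list was thus not there at equal length, and WT replicate 2 had none at any time. In WT at 8 h the element over the Il1b start sat at the cut, at rank 15277 in replicate 1 and 15971 in replicate 2. This measure was chosen after the data were seen.

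**Figure D2:**
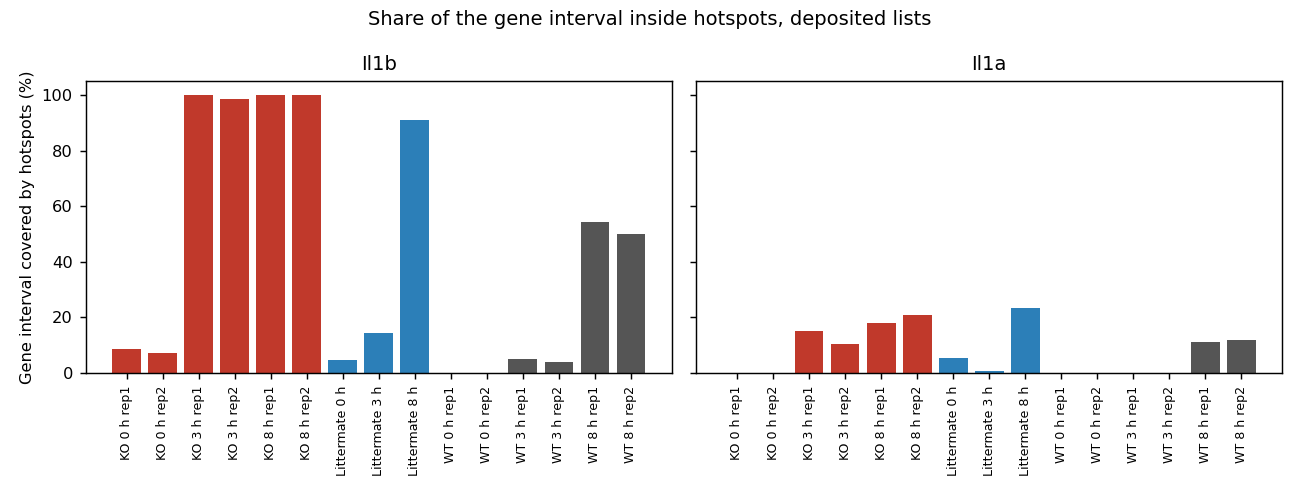
Share of the Il1b and Il1a intervals that lies inside hotspots of the deposited lists, in percent, with 1 bar per library. Il1b is covered by 98.7% or more in the 4 KO libraries with LPS, and Il1a by no more than 23.6% in any library.

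At Il1a hotspots lay over or just upstream of the start and covered only short stretches of the body. The element over the Il1a start (chr2:129134461-129138033) was in neither KO 0 h list, at ranks 40147 and 31292 in KO after 3 h and at 17626 and 15060 after 8 h. In the littermate libraries it was absent at 0 h and ranked 47308 at 3 h and 20542 at 8 h. In WT it was absent at 0 h, ranked 14278 in 1 of the 2 lists at 3 h, and ranked 23203 and 20022 at 8 h. No hotspot of the WT 3 h lists touched the Il1a interval, so the one ranked there lay upstream of the start, which is placed to the nearest kb. The ranked hotspot also lay wholly upstream in both KO 3 h lists and both WT 8 h lists. No list held the element at 0 h, and all 5 held it at 8 h. Hotspots covered at most 20.9% of the Il1a interval in KO, 23.6% in the littermate libraries and 11.8% in WT.

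The element 5.8 kb upstream of Il1a (chr2:129141247-129142420) was likewise absent from all 5 lists at 0 h. In KO it ranked 26987 and 22626 after 3 h and 14630 and 14256 after 8 h. The littermate libraries ranked it 9954 at 3 h and 14492 at 8 h. In WT it was in neither 3 h list and ranked 16217 and 13158 at 8 h. The 8 h ranks of all genotypes overlapped, while at 3 h the WT lists, which stop at Z-scores of 9.37 and 10.6, did not hold it. Its gain at 8 h over 0 h was 0.25 in the shortened lists, again measured against the list end, and it lost its call with lists of 15659 hotspots.

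The element 9.9 kb upstream of Il1a (chr2:129145255-129146621) was open before LPS in 4 of the 5 libraries. It ranked 17122 and 18900 in KO at 0 h, 14839 and 9019 after 3 h and 8457 and 8971 after 8 h. In the littermate libraries it ranked 8760, 4231 and 7791 at 0, 3 and 8 h. In WT it ranked 8444 in 1 list at 0 h and was absent from the other, with ranks of 4452 and 10251 after 3 h and 7771 and 10851 after 8 h. The KO lists moved to stronger ranks with LPS. KO and control ranks overlapped at 8 h and already at 3 h, where KO rank 9019 was stronger than WT rank 10251. At 0 h the WT list without the element lay behind both KO lists. Its gain at 8 h over 0 h was 0.58, with an exact permutation p of 0.0833.

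The element 2.0 kb upstream of Il1b (chr2:129197826-129200255) was not called at either LPS time. It ranked 12928 and 16202 in KO at 0 h, 18517 and 13492 after 3 h and 15484 and 12353 after 8 h. The littermate libraries ranked it 5532, 5798 and 7635 at 0, 3 and 8 h. In WT it ranked 12133 and 9332 at 0 h, 8797 and 12717 after 3 h and 9330 and 12103 after 8 h. Its gain at 8 h over 0 h was -0.07 (exact permutation p = 0.806), although its Z-scores were higher at 8 h than at 0 h in each series, as were those at rank 15659 of each list. The element 12.5 kb downstream of the Il1a start, beyond the end of the gene, had a gain of -0.32 (exact permutation p = 0.389).

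**Figure D3:**
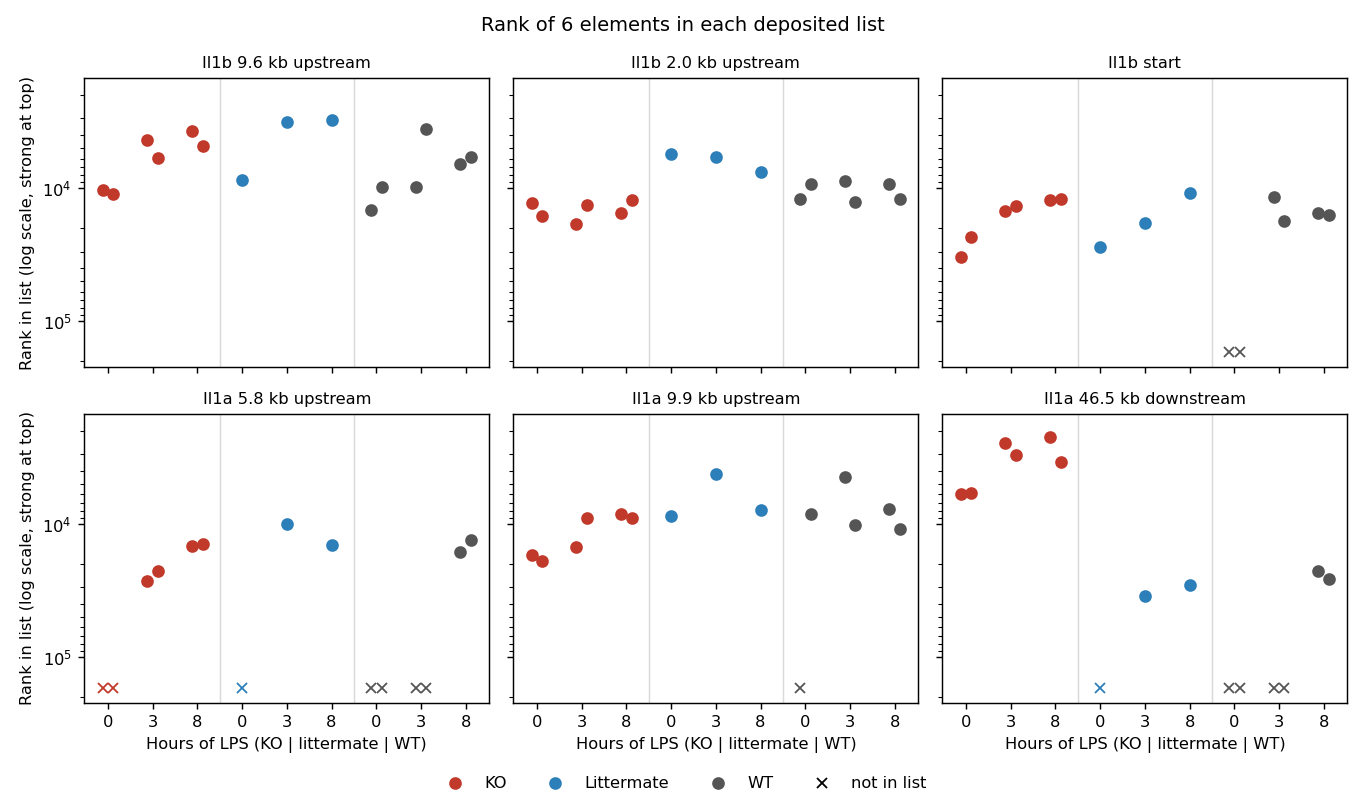
Rank of 6 elements in each deposited list (vertical axis, log scale, strong at the top) by hours of LPS for KO, littermate and WT, with 1 point per library and crosses for lists that lack the element. The Il1b 9.6 kb element climbs with LPS in each genotype, the Il1b 2.0 kb element lies between ranks 5532 and 18517 throughout, and the element 46.5 kb downstream of Il1a lies between ranks 2232 and 5950 in KO and at 22602 or weaker in controls. Of the hotspots of this last element, only those of KO reach the window.

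At 3 h against 0 h, with 15659 hotspots per list, 9 of the 23 elements entered a list. None ranked higher in every genotype without overlap, against 4.72% over the genome, and none ranked lower, against 4.92%. No element of the locus had an unadjusted exact permutation p under 0.05, against 9.63% over the genome. The Il1b 9.6 kb element had a mean gain of 1.12, with 1.08 in KO, 1.44 in the littermate and 1.01 in WT (exact permutation p = 0.0556, adjusted p = 0.418). Its overlap came from WT, where rank 9826 in replicate 1 at 3 h fell just behind rank 9775 in replicate 2 at 0 h. With the replicate block, which sets each 3 h list against the 0 h list of its own number, 1 of 9 elements ranked higher in all 5 series, against 5.93% over the genome. The count of elements ranked higher was 2 of 10 without WT replicate 1, against 7.29% over the genome. It was 2 of 9 without WT replicate 2, against 7.19%, and 1 of 9 without KO replicate 1, against 6.25%. The Il1a 28.2 kb element had a gain of 0.56 (exact permutation p = 0.0833), with 1.62 in the littermate, 0.59 in WT and 0.01 in KO. No shortened 0 h list held it, nor did that of KO replicate 1 at 3 h, so these gains are measured against the list end. In the deposited KO lists it ranked 28783 and 30427 at 0 h and 20926 and 15543 after 3 h. The low KO gain therefore does not show a lack of change in KO.

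Longer lists within one genotype showed elements that the shortened lists lacked. In KO, at 111553 hotspots per list, 7 of 22 elements (31.8%) were present in both lists at 3 h and missing from both at 0 h, against 3.99% of elements over the genome, and none was lost, against 2.21%. At 8 h 5 of 21 (23.8%) were gained, against 5.63%, and 1 of 21 was lost, against 2.00%. The 5 gained at 8 h were those over the Il1a start, 4.1 kb downstream of it, 5.8 kb upstream of it, and 30.3 and 39.4 kb upstream of Il1b, and all 5 were also gained at 3 h. The lost one, 13.0 kb upstream of Il1b, had Z-scores of 9.01 and 13.6 in KO at 0 h, 4.76 in 1 of 2 lists at 3 h, and was in no 8 h list and in no control list. In the littermate libraries, 7 of 16 elements (43.8%) were gained at 8 h, against 31.6% over the genome, and none lost, against 28.6%. At 3 h 6 of 15 (40.0%) were gained, against 31.9%, and 2 lost, against 32.6%. The littermate gains at both times include the element 46.5 kb downstream of Il1a, whose littermate hotspots lie outside the window. They therefore overstate what the littermate lists gained within the locus. In WT, 3 of 8 (37.5%) were gained at 8 h, against 9.51%, and none lost, against 5.85%; at 3 h 1 of 7 (14.3%), the Il1a 28.2 kb element, was gained, against 6.13%, and none lost, against 5.63%. The 8 h lists of KO also had higher Z-scores at equal rank than the 0 h lists (35.6 and 40.0 against 25.9 and 25.1), and the part of that in these counts was not tested. These comparisons were added after the data were seen.

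The question of the genotype comparison was where KO and littermate lists ranked the locus differently at every time. With 52400 hotspots per list, 18 of the 23 elements entered a list. Of these, 2 (11.1%) ranked higher in both KO lists than in the littermate list at 0, 3 and 8 h, against 13.6% over the genome. Another 3 (16.7%) ranked lower at every time, against 5.81%. The share ranked higher is near the background. The median rank gain in KO was -0.27 over the 18 elements and -0.03 over all elements.

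The 2 elements ranked higher in KO lie at the far ends of the window. The element 46.5 kb downstream of the Il1a start (chr2:129088398-129090595) crosses the window's lower edge, and in controls its hotspots end before that edge. It is thus part of the locus only through its KO hotspots. Its call and p-value therefore only describe the element and are no support for a genotype difference at the locus. In KO it ranked 5950 and 5862 at 0 h, 2461 and 3056 after 3 h and 2232 and 3420 after 8 h. In the littermate libraries it was absent at 0 h and ranked 34520 at 3 h and 28704 at 8 h. In WT it was absent at 0 and 3 h and ranked 22602 and 25712 at 8 h. The KO and control ranks did not overlap at any time, and KO Z-scores of 48.3 to 94.0 stood against 5.35 to 18.3 in the controls that held it. The rank gain for this comparison, the mean log2 rank in littermate less that in KO, is positive where an element was stronger in KO, and was 3.39 (two-sided exact permutation test, p = 0.037, the lowest possible with 27 arrangements; adjusted p = 0.208 over 100782 elements). The next element below it, outside the window, was in all 6 KO lists and 4 of the 9 control lists.

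The other, 37.4 kb upstream of Il1b (chr2:129233895-129234839), had a gain of 0.45 (exact permutation p = 0.037). It ranked 29006 and 29274 in KO at 0 h, 38488 and 22614 after 3 h and 36680 and 36206 after 8 h. The littermate libraries ranked it 36020 at 0 h and 42436 at 8 h and lacked it at 3 h. WT lists lacked it at 0 and 3 h and ranked it 23288 and 32610 at 8 h, above both KO lists. Its call was lost when hotspots were ranked by highest tag density and with lists of 0.5 times the length, where the gain was as low as 0.04.

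The 3 elements ranked lower in KO than in littermate lists at each time were those 9.9 kb upstream of Il1a and 2.0 and 9.6 kb upstream of Il1b. The rank gains in KO were -0.88, -1.23 and -0.48, each with an exact permutation p of 0.037 and an adjusted p of 0.208. The per-library ranks are given above. At 8 h they were 8457 and 8971 in KO against 7791 in the littermate for the Il1a 9.9 kb element, a narrow gap. At both Il1b elements the sign depended on how presence was defined: with at least 50% of the element covered the gains were 0.91 and 0.39, since short littermate hotspots then count as absent. The Il1a 9.9 kb element lost its call when ranked by highest tag density, with a gain of -0.21.

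**Figure D4:**
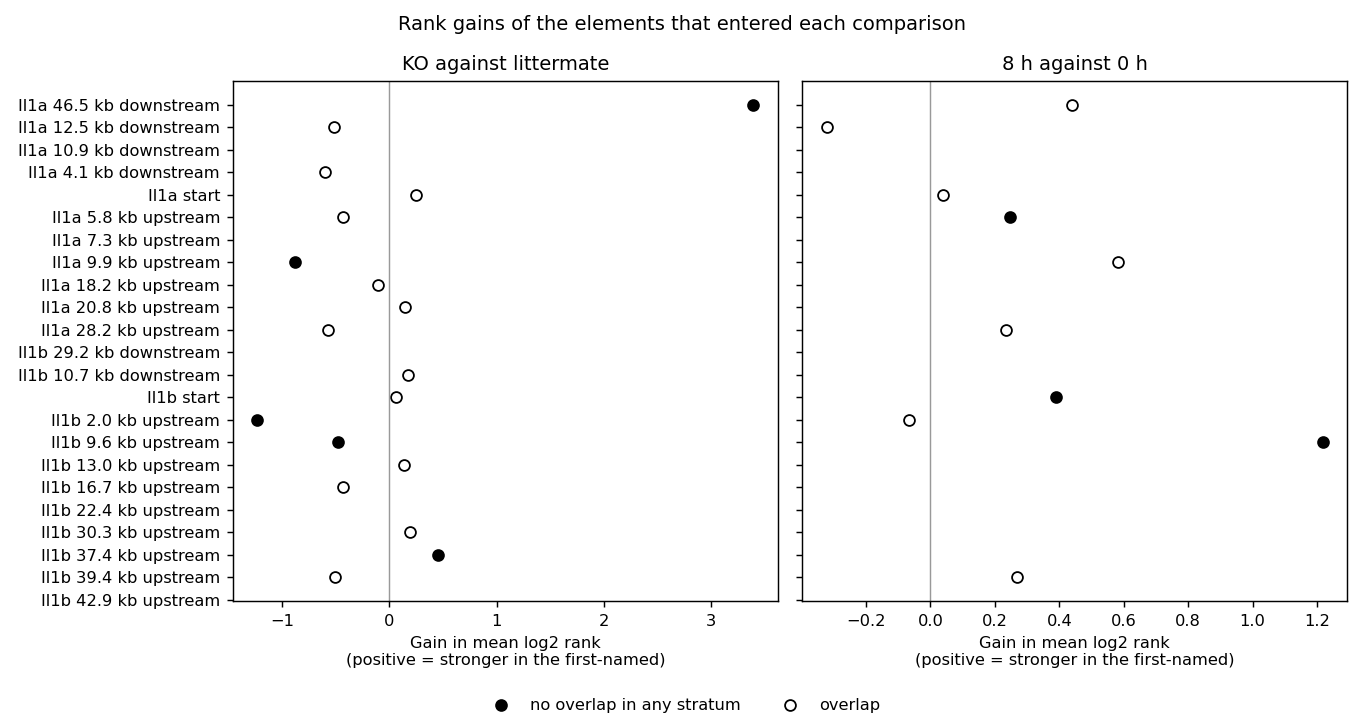
Gain in mean log2 rank (second-named group less first-named, so positive for stronger in the first-named) for the elements that entered each comparison, KO against littermate on the left and 8 h against 0 h on the right, with filled points where groups did not overlap in any genotype or time. The element 46.5 kb downstream of Il1a, in the window only through its KO hotspots, stands at 3.39 on the left and the Il1b 9.6 kb element at 1.22 on the right.

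At 8 h, where KO and control lists were closer in strength, 17 of the 23 elements entered lists of 48084 hotspots. Both KO lists ranked 4 of them (23.5%) above all 3 control lists, against 29.7% over the genome, and 4 (23.5%) below all 3, against 23.0%. Both shares are near the background, and 10 arrangements cannot give a p below 0.1. Those ranked higher in KO were the elements 46.5 kb downstream of Il1a, over the Il1a start, 10.7 kb downstream of the Il1b start and 30.3 kb upstream of Il1b. The first of these reached the window, and the last was listed at all, only in KO lists. Those ranked lower were the elements 12.5 kb downstream of the Il1a start and 2.0, 16.7 and 39.4 kb upstream of Il1b. When hotspots were ranked by highest tag density, 8 of 17 ranked higher in KO, against 27.2% over the genome, and 2 of 17 lower, against 20.6%. The Il1b 39.4 kb element (chr2:129235689-129237085) ranked 22389 and 17437 in KO, against 11418 in the littermate and 12312 and 14419 in WT, at 8 h. The Il1b 9.6 kb element did not separate the genotypes at 8 h, with ranks of 3708 and 4836 in KO against 3069 in the littermate and 6615 and 5822 in WT.

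The element 30.3 kb upstream of Il1b (chr2:129226802-129227796) was seen in KO lists with LPS and in no control list. It had Z-scores of 9.52 and 13.0 in KO at 3 h and 15.0 and 14.2 at 8 h, and was in neither KO 0 h list. The littermate 8 h list, which held 114427 hotspots and reached down to a Z-score of 3.65, lacked it. So did the WT lists, which stopped at 7.98 or above. Whether cutoff or depth had a part in its absence from control lists was not tested. In all, 5 of the 23 elements were in no control list, against 56.1% over the genome, and the other 4 were in 1 to 3 KO lists each.

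The remaining elements found in at least 10 lists spanned a wide range of ranks. The Il1a 20.8 kb element was in all 6 KO lists, in the littermate lists at 3 and 8 h and in the WT lists at 8 h, at ranks of 15823 to 35123. The Il1a 28.2 kb element was in 13 lists, at ranks of 5083 to 34228, lacking from both WT lists at 0 h. The Il1b 10.7 kb downstream element was in 12 lists at ranks of 17277 to 45049, and the Il1b 16.7 kb element in 10 lists at ranks of 31441 to 94896. The 8 elements not described singly by rule were in 1 to 7 lists each.

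Across the 15 libraries, the log2 ranks of the elements in all lists were compared within the locus. The correlation with the Il1b 9.6 kb element was 0.07 for the Il1b 2.0 kb element and -0.35 for the Il1a 12.5 kb downstream element, where the median over the 10426 elements in all 15 lists was -0.09. The elements elsewhere whose ranks were most like those of the Il1b 9.6 kb element lay at chr13:75925335-75929239 (r = 0.93), chr1:138579262-138583570 (r = 0.91) and chr9:110957325-110962700 (r = 0.90). These values describe 15 libraries that share genotype, time and list strength.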

How the data were processed

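DNase-seq hotspot lists of 15 libraries were used, 1 list deposited per library. CASAVA and the build mm9 are named in the submitters' processing notes. Aligner, hotspot caller and cutoff: not given in the sources used here. The deposited lists hold, per the file headers, the highest tag density of each hotspot and its mean (a signal), its Z-score (the authors' score) and its p-value, the last not used. Hotspots of the autosomes, X and Y were merged into elements where they shared at least 1 bp, and an element took the best rank by Z-score among its hotspots in a list. For each comparison the lists were shortened to the length of the shortest, and an absent element ranked one past the end. In the lists as deposited, an absent element ranked below every listed one. An element was called where groups did not overlap in any genotype (times) or time (genotypes); exact two-sided permutation tests of mean log2 rank permuted times within genotype or the littermate label within time, with Benjamini-Hochberg adjustment over all elements.

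Named elements were those nearest each gene start (within 2 kb), those in at least 10 deposited lists and those called in a comparison. Members, lists and tests were chosen with earlier results of these data known. Alternatives were list length, ranking score, coverage of the element, how elements were merged, leaving out each series and the replicate block. Promoter sequences are RefSeq (GRCm38.p6), and both genes matched; no position was moved between builds, and whether hotspot coordinates count from 0 or 1 is not stated. Highest tag densities are whole multiples of a step of 0.237 to 0.451 within 0.05 steps. Depth is unknown, because the lists hold no read counts, and no counting interval is given. Python 3.11.15, numpy 2.4.6, pandas 2.3.3 and matplotlib 3.10.9 were used.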

Additional observations from a re-analysis of the deposited data

How the results depend on the processing

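Of the 8 counts of called elements, those lower at 3 h kept 0 in every setting run, against 0.616% to 8.85% over the genome. Percentages in parentheses below are shares of all elements of the genome under the same setting. Elements ranked higher at 8 h than at 0 h in every genotype numbered 3 of 10 (7.47%). They numbered 7 of 22 in the lists as deposited (3.49%) and 6 of 13 ranked by highest tag density (6.53%). With lists of 0.5 times the length they numbered 1 of 5 (5.58%), and with lists of 15659 hotspots 1 of 10 (7.30%). With 1 series left out they numbered 3 to 5 (8.77% to 11.0%), and those ranked lower numbered 0 to 1 (6.38% to 8.86%). Higher at 3 h, the count of 0 of 9 (4.72%) became 2 of 22 as deposited (0.746%) and 2 of 12 by highest tag density (4.32%). It became 1 of 8 with 50% of the element covered (0.528%) and 1 of 9 with the replicate block (5.93%). With 1 series left out it was 0 to 2 (6.10% to 7.29%). Higher in KO than in littermate, the count of 2 of 18 (13.6%) became 1 of 14 with lists of 0.5 times the length (14.1%) and 1 of 10 with lists of 15659 (14.4%). It became 1 of 21 by highest tag density (11.6%) and 1 of 24 with elements from WT lists only (21.3%), the last chosen after seeing the data. With a KO series left out it was 2 to 3 (17.3% to 18.0%). Lower, the count of 3 of 18 (5.81%) became 2 of 21 by highest tag density (5.68%) and 1 of 18 with 50% covered (2.03%). It was 3 of 23 as deposited (1.96%), 3 of 14 with lists of 0.5 times the length (9.49%) and 3 of 10 with lists of 15659 (10.8%). With elements from WT lists only it was 3 of 24 (10.7%), near the background. With a KO series left out it was 3 to 4 (6.98% to 7.28%). At 8 h, higher in KO than in controls, the count of 4 of 17 (29.7%) became 2 of 11 with lists of 0.5 times the length (27.4%) and 1 of 10 with lists of 15659 (26.3%). It became 8 of 17 by highest tag density (27.2%), 8 of 24 with elements from WT lists only (25.0%) and 4 to 6 with 1 series left out (32.9% to 38.2%). Lower, the count of 4 of 17 (23.0%) became 2 of 17 by highest tag density (20.6%) and 3 of 11 with lists of 0.5 times the length (23.9%). It became 3 of 10 with lists of 15659 (23.7%), 3 of 17 with 50% covered (16.0%) and 4 to 6 with 1 series left out (27.2% to 28.4%). With 50% covered, the rank gain in KO over littermate turned to 0.91, against -1.23 as reported, at the Il1b 2.0 kb element and to 0.39, against -0.48, at the Il1b 9.6 kb element. Leaving out a series leaves too few arrangements for an exact permutation p under 0.05. The replicate block gave 3 of 10 elements higher at 8 h (9.21%), as many as without it. Log2 rank deviations of same-numbered libraries correlated at 0.46 to 0.56 in WT and at -0.06 to 0.23 in KO, so the numbers were not taken as pairs. In WT the number coincides with the DNase amount. Depth is unknown, and elements below a list's cutoff cannot be told from closed chromatin.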
